A study of Mus musculus with 8 samples.

Results

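The genes described here make, bind or remove retinoic acid or respond to it: *Aldh1a1*, *Aldh1a2*, *Aldh1a3*, *Rara*, *Rarb*, *Rarg*, *Cyp26b1*, *Dhrs3* and *Rarres1*, 9 of the 32285 genes counted in a pool of single cells from embryonic mouse kidneys. They were chosen by their symbols, with earlier results of these data known, and each symbol named 1 row of the count table. Retinoic acid is made from vitamin A (retinol) in 2 oxidation steps, the second of which, from retinal to retinoic acid, is carried out by the retinaldehyde dehydrogenases ALDH1A1, ALDH1A2 and ALDH1A3. It acts through the nuclear receptors RARα, RARβ and RARγ, encoded by *Rara*, *Rarb* and *Rarg*, which bind DNA together with RXR partners at response elements built of repeated half-sites. The cytochrome P450 enzyme CYP26B1 breaks retinoic acid down, DHRS3 returns retinal to retinol, and *Rarres1* was first described as a gene that responds to a retinoid. In the developing kidney, retinoic acid made in the stroma acts on the ureteric bud, where it is needed for *Ret* and for branching.

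The cells used came from the kidneys of 2 male Trim28Δ/Δ embryos (mice 1 and 2) and 2 male Trim28f/f embryos (mice 3 and 4), at E17.5 by the sample labels and E18.5 by the study's methods. Further multiplexing tags had counts in the pool but are not named, and their cells were left out. Trim28f carries loxP sites around the middle exons of *Trim28*, and Trim28Δ is the same allele after recombination by a Cre that the *Six2* promoter drives in nephron progenitor cells (NPCs), so that the nephrons that descend from NPCs carry the deletion, whereas stroma, ureteric bud derivatives, vessels and blood cells come from other lineages. Cells of each mouse bore their own multiplexing tag, and each mouse is 1 replicate. A further 6 samples of the series, bulk RNA from kidneys at P0, were left aside.

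A total of 7363 cells were assigned to the 4 mice, between 1316 and 2749 per mouse with 25761268 to 52777501 UMIs (unique molecular identifiers, each standing for 1 captured transcript), and fell into 23 clusters. These were named from marker genes and are called NPC-like, early nephron-like, ErPT-like (early proximal tubule), PT-like (proximal tubule), LOH-like (loop of Henle), DT-like (distal tubule), CD principal-like (principal cells of the collecting duct) and so on. Clusters 5, 6, 12, 14 and 21 were not named by the markers and are given by number with their leading genes. Cluster 14 was led by *Pdgfrb*, *Ebf1* and *Gucy1a1*, with stroma and mural closest. Cluster 5 was led by *Spon1*, *Fgf8* and *Epha4* and its closest types were DT and early nephron, cluster 6 by *Aadat*, *Cryab* and *Serpina6* with ErPT and PT closest, and cluster 12 by *Rprm*, *Lcn2* and *Calb1*, with *Ret* and *Gfra1* among its 10 leading genes and the ureteric bud tip closest. Cluster 1, the larger of the early nephron-like clusters, was led by cell cycle genes, and cluster 22, one of the erythroid-like clusters, also had the adrenal markers *Cyp11a1* and *Hsd3b1* among its leading genes. Mouse 3 stood apart in its collecting duct, since it contributed 175 of the 176 cells of cluster 15, led by *Elf3*, but only 3 of the 323 cells of cluster 11, the other CD principal-like cluster. *Trim28* was between 19.9 and 47.5 CPM in the Trim28Δ/Δ mice and between 57.4 and 164 CPM in the Trim28f/f mice across the NPC-like, early nephron-like, ErPT-like, PT-like, podocyte-like, LOH-like and DT-like classes and clusters 5 and 6. In stroma-like cells it was 105 and 101 against 83.8 and 112 CPM. The assay reads the 3′ end of transcripts, which lies outside the floxed segment, so these values do not check the deletion itself.

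Of the 9 genes, 8 had promoter windows in the RefSeq table of GRCm38.p6 (15 windows, each from 250 bases before to 50 bases after a transcript start). They were searched on both strands for a pair of the half-sites (AGGTCA itself, the variant AGTTCA, the variant GGGTCA and the variant GGTTCA) in the same direction with 1, 2 or 5 bases between them, the arrangement that RAR and RXR bind. A single window held such a pair, that of *Rarb*, and 0.588% of all 32851 windows in the table did. For the spacing of 5 bases alone the share of all windows was 0.0974%. The *Rarb* window is shown because this is the textbook retinoic acid response element. It lies on the minus strand at chr14:16575427-16575726 and is printed 5′ to 3′ with the half-sites in capitals, 53 to 37 bases before the start.

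Rarb: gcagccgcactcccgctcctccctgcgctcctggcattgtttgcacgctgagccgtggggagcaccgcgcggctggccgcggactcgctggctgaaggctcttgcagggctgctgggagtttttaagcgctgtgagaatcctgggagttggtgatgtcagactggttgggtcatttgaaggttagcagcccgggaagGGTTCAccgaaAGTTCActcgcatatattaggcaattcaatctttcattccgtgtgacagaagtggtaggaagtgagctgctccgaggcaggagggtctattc

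Of 38 other genes of the pathway, 27 had windows in that table and only *Cyp26a1*, which encodes another retinoic acid-degrading enzyme, had a pair, with the same spacing of 5 bases but on the opposite strand. Its site, with 40 bases on either side, lies at chr19:37697736-37697832 (plus strand).

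Cyp26a1: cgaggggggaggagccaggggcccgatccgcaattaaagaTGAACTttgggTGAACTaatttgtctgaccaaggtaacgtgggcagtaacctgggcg

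A pair of half-sites is a match of letters, and its absence from the other windows says nothing about sites elsewhere.

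Each of the 9 genes had its own distribution over the kidney. Levels are given as CPM, the UMIs of a gene scaled to a fixed total of UMIs over the cells of a class in 1 mouse, as mean ± SD of the 4 mice (n = 4). They describe cell groups that were themselves drawn from expression, so no test was made between classes. These means and their order mix both genotypes. The class with the highest mean was the same for 6 of the 9 genes in the Trim28f/f mice alone, with *Aldh1a1*, *Aldh1a3* and *Dhrs3* as the exceptions, and for 6 in the Trim28Δ/Δ mice alone, with *Rara*, *Rarg* and *Cyp26b1* as the exceptions. RNA free in the suspension was read from barcodes of the whole pool with 10 to 100 UMIs. From the haemoglobin UMIs in cells that are not erythroid, its part was estimated at 2.44% of UMIs in intercalated-like cells to 25.5% in podocyte-like cells. The estimate joins all mice and is rough. The 6 erythroid markers in podocyte-like cells summed to 1251 and 11723 CPM in mice 1 and 2 and to 12753 and 1845 CPM in mice 3 and 4. All mice shared 1 pool, so haemoglobin that differs so much between them is not a measure of free RNA alone.

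*Aldh1a2* (chromosome 9 from 71215789 to 71296243 on the plus strand in the GENCODE M21 annotation of GRCm38, like all positions that follow) was found along the developing nephron. It reached 341 ± 103 CPM in ErPT-like cells, 255 ± 150 in cluster 6, 244 ± 67.2 in NPC-like and 227 ± 45.4 in early nephron-like cells. These 4 overlapped each other from mouse to mouse, while the lowest early nephron-like value, 170 CPM, was above every value of the next in order, cluster 5 (137 ± 18.5). Stroma-like cells, the classical source of the enzyme, had 126 ± 59.3 CPM and PT-like cells 123 ± 50.5. The places of cluster 6 and PT-like cells rested on the Trim28Δ/Δ mice. In the Trim28f/f mice alone, cluster 6 lay below ErPT-like, NPC-like and early nephron-like cells, and PT-like cells lay below stroma-like cells (values in the genotype comparison below). *Aldh1a2* was lowest in the collecting duct system, at 14.2 ± 3.32 CPM in CD principal-like, 14.9 ± 7.44 in intercalated-like and 16.3 ± 8.99 CPM in cluster 12. By the rough estimate above, free RNA alone would give between 2.17 and 6.54 CPM there.

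*Aldh1a3* (chromosome 7 from 66390890 to 66427517, minus strand) was distributed otherwise, with r = -0.52 against *Aldh1a2* over the 23 clusters (Pearson, log2(CPM + 1), which share their libraries). Its highest levels were in cluster 12 (206 ± 103 CPM), CD principal-like cells (165 ± 76.3) and cluster 5 (105 ± 79.7), followed by DT-like cells at 34.3 ± 19.7 CPM. In ErPT-like, PT-like and cluster 6 cells, where *Aldh1a2* was abundant, it was 5.93 to 7.80 CPM. *Aldh1a1* (chromosome 19 from 20492715 to 20643465, plus strand) was sparse, with 378 UMIs in all cells, and was concentrated in cluster 12 (34.6 ± 29.6 CPM), intercalated-like cells (24.9 ± 19.0) and podocyte-like cells (13.2 ± 4.11). No UMI of it was found in mural-like cells or cluster 14. In the Trim28f/f mice alone, *Aldh1a3* was 59.7 and 241 CPM in CD principal-like cells and 104 and 136 CPM in cluster 12, and *Aldh1a1* was 7.55 and 12.9 CPM in cluster 12 and 10.2 and 10.4 CPM in podocyte-like cells, so that cluster 12 did not stand above these classes there. The place of cluster 5 above DT-like cells for *Aldh1a3* also rested on the Trim28Δ/Δ mice, as the values in the genotype comparison below show.

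The receptors were also divided among cell types. *Rara* (chromosome 11 from 98927818 to 98974942, plus strand) was found in every class, from 13.2 ± 2.82 CPM in erythroid-like to 69.5 ± 45.3 CPM in CD principal-like cells, and each class overlapped the next. *Rarb* (chromosome 14 from 16430839 to 16819156, minus strand) was highest in stroma-like cells (44.5 ± 12.6 CPM), cluster 14 (31.5 ± 10.2) and NPC-like cells (30.6 ± 14.2). It was 17.6 ± 3.19 CPM in early nephron-like, 6.98 ± 0.839 in ErPT-like and 3.27 ± 1.09 CPM in PT-like cells, and these 3 ranges did not overlap. The early nephron-like class joins unlike clusters, so its mean is not a single step of the proximal lineage. With UMIs pooled over mice, cluster 1 had 10.2 CPM of *Rarb* and cluster 7, whose second-closest type was podocyte, had 36.1 CPM. *Rarg* (chromosome 15 from 102234938 to 102257517, minus strand) was a gene of vessels and stroma, with 44.8 ± 6.62 CPM in endothelial-like cells, 36.1 ± 17.7 in cluster 21 and 32.2 ± 18.3 in stroma-like cells. In NPC-like cells it was 3.93 ± 0.830 CPM.

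Of the enzymes that oppose synthesis, *Cyp26b1* (chromosome 6 from 84571414 to 84593908, minus strand) was largely endothelial. Cluster 21, which was led by the arterial genes *Sox17* and *Gja4*, had 137 ± 80.2 CPM and the endothelial-like class 122 ± 63.7 CPM. Cluster 21 held only 77 cells, 5 of mouse 3 and 13 of mouse 4. With UMIs pooled over mice the order was the other way, at 95.2 against 131 CPM. The lowest endothelial-like value, 62.0 CPM, was above every value of cluster 12, which came next in order at 21.5 ± 14.7 CPM. *Dhrs3* (chromosome 4 from 144892827 to 144928209, plus strand) was broad, with 147 ± 29.7 CPM in intercalated-like, 139 ± 46.0 in stroma-like and 103 ± 51.5 CPM in CD principal-like cells, against 12.7 ± 3.49 CPM in cluster 5. *Rarres1* (chromosome 3 from 67478972 to 67515523, minus strand) had 512 UMIs in all cells. Podocyte-like cells held its highest level, 39.1 ± 14.1 CPM, followed by cluster 6 (12 ± 10.9), PT-like (6.76 ± 6.45) and ErPT-like cells (5.22 ± 5.22). The order after podocyte-like cells rests on the Trim28Δ/Δ mice. In the Trim28f/f mice it was 0 and 6.19 CPM in cluster 6, 1.71 and 1.47 in PT-like and 0.794 and 0.651 in ErPT-like cells, against 7.99 and 1.96 CPM in stroma-like and 1.53 and 2.76 CPM in LOH-like cells. It was at 0 UMIs in intercalated-like, mural-like and cluster 12 cells.

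**Figure D1:**
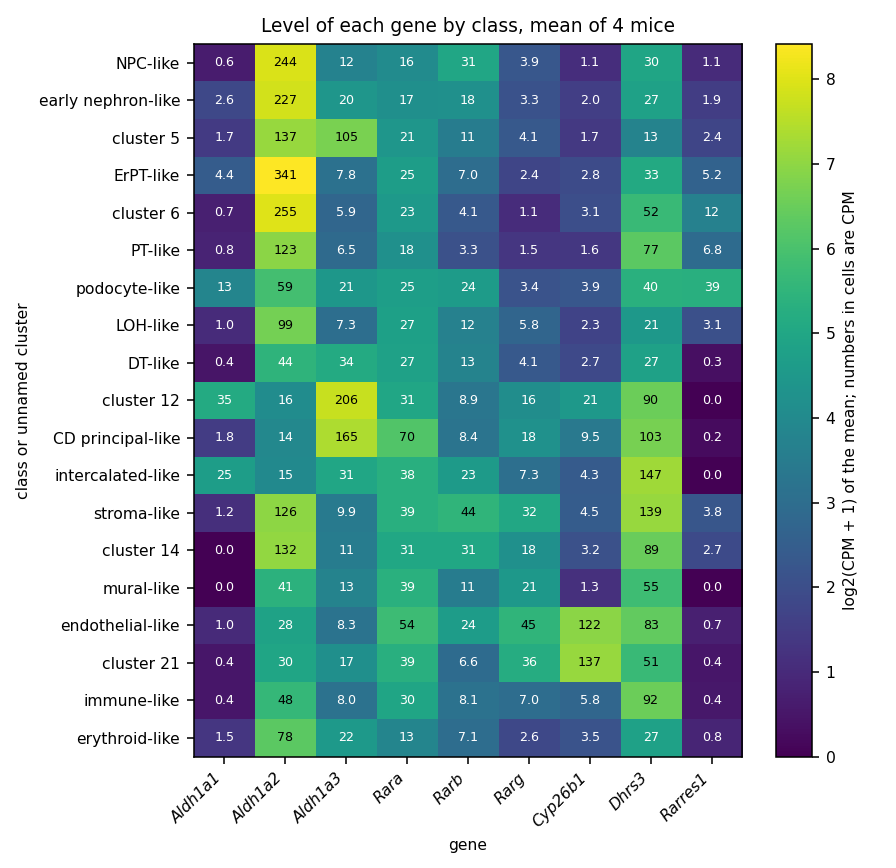
Level of each of the 9 genes (columns) in each class or unnamed cluster (rows); numbers are CPM, the mean of 4 mice, and the colour is the log2 of that mean plus 1. *Aldh1a2* is high from NPC-like to PT-like cells, *Aldh1a3* in cluster 12, CD principal-like cells and cluster 5, and *Cyp26b1* in endothelial-like cells and cluster 21.

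The genes whose levels followed each of the 9 most closely over the 23 clusters were sought among 6699 genes with at least 50 CPM in some cluster, by Pearson's r of log2(CPM + 1). All clusters come from the same libraries, so these values only describe likeness. *Aldh1a2* was closest to *Bmp4* (r = 0.85), *Sall1* (0.83), a transcription factor of NPCs, and *Cdh6* (0.82), a cadherin of the early proximal tubule. *Aldh1a3* was closest to *9230102O04Rik* (0.90), *Btc* (0.87), which encodes the growth factor betacellulin, and *Rprm* (0.87). *Rara* was closest to *Arfgap3* (0.89), *Vps37b* (0.88) and *Tsc22d4* (0.87), *Rarb* to *Frem1* (0.79), *Ptk7* (0.79) and *Peli2* (0.76), and *Rarg* to *Plod1* (0.91), *Peak1* (0.90) and *Slc44a2* (0.89). *Cyp26b1* followed *Prkch* (0.91), *Mmrn2* (0.86), an endothelial matrix protein, and *Tmem88* (0.83). *Dhrs3* was closest to *Lgals8* (0.83), *Camk1* (0.78) and *Ahnak* (0.76), *Rarres1* to *Itgb8* (0.83), *B4gat1* (0.80) and *Hist3h2a* (0.80), and *Aldh1a1* had no close companion, with *Ap1s3* (0.67), *Rpap3* (0.67) and *Ociad2* (0.67) at the top. Among the 9 genes themselves, *Rara* and *Rarg* were the most alike (0.79) and *Aldh1a2* and *Rara* the most opposed (-0.64).

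The comparison of genotypes asked in which cell types the loss of *Trim28* went with a change of these genes. UMIs were summed per mouse and class, normalized by TMM within each class and tested by edgeR (quasi-likelihood test, p-values adjusted by Benjamini-Hochberg over all genes of the class) (2 and 2 mice, 18 classes with at least 10 cells in every mouse). CPM in this comparison include the TMM factor, and log2 changes are Trim28Δ/Δ over Trim28f/f with their SE. Where the mice of the genotypes are said not to overlap, the share of all genes without overlap was not counted. The 9 genes gave 99 tests, since many were too low in a class to be tested. The filter asks for enough counts in 2 mice, so a gene could enter a test through 1 genotype alone. Of the 99 tests, 6 passed an adjusted p of 0.05, 5 of them higher and 1 lower in Trim28Δ/Δ mice. Over all genes and classes 0.329% of tests passed. The 9 genes were chosen with earlier results of these data known, so setting these shares side by side does not test the group. The 6 calls were *Aldh1a2* in PT-like cells and cluster 6, *Rarres1* in ErPT-like and PT-like cells, and *Aldh1a3* in cluster 5 and DT-like cells. *Rarres1* entered both of its tests through the Trim28Δ/Δ mice alone, so its direction there was largely set by the filter. All of these cell groups had lower *Trim28* in both Trim28Δ/Δ mice. This is not particular to the 9 genes. Of all genes, 0% passed in stroma-like, mural-like, endothelial-like and CD principal-like cells and in cluster 12, where *Trim28* overlapped between genotypes. It also overlapped in immune-like cells and cluster 14, where 0.0288% and 0.0276% passed. In erythroid-like and intercalated-like cells, where *Trim28* was higher in both Trim28Δ/Δ mice, 0% and 0.0477% passed.

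*Aldh1a2* rose in the late proximal lineage. In cluster 6 it was 354 and 407 CPM in the Trim28Δ/Δ mice, against 138 and 116 CPM in the Trim28f/f mice. The groups lie far apart, and the log2 change was 1.61 (SE 0.15, adjusted p = 0.00336, edgeR); 0.307% of genes passed in this cluster, to which mouse 3 gave only 20 cells and the others 77 to 169. In PT-like cells it was 150 and 180 CPM against 83.9 and 77.7 CPM, a log2 change of 1.03 (SE 0.14, adjusted p = 0.0268), where 0.452% of genes passed. Both Trim28Δ/Δ mice were again above both Trim28f/f mice, but the adjusted p was 0.0581 without mouse 1, 0.187 without mouse 2, 0.195 with all genes of at least 1 count tested and 0.167 (log2 change 0.77) with cells assigned by the largest tag share. The 6 ErPT markers, which label cells rich in *Aldh1a2*, summed to 673 and 690 CPM against 748 and 667 CPM in these PT-like cells and to 756 and 795 against 580 and 740 CPM in cluster 6, and the 7 NPC markers in PT-like cells to 34.2 and 31.2 against 55.1 and 76.9 CPM. The 8 PT markers in cluster 6 summed to 2066 and 1973 against 3097 and 2374 CPM, lower in both Trim28Δ/Δ mice. None of these markers was at 0, and their part in the results was not tested.

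Upstream in the lineage the difference had the same direction but did not pass in the main settings. In ErPT-like cells it passed at a resolution of 0.4 (adjusted p = 0.0484, edgeR) and with all genes of at least 1 count tested (0.000611). NPC-like cells passed in neither (0.183 and 0.165). Over all genes and classes 0.324% and 1.04% of tests passed in these settings. In ErPT-like cells *Aldh1a2* was 426 and 425 CPM against 291 and 222 CPM (log2 change 0.73, SE 0.15, adjusted p = 0.133), and in NPC-like cells 254 and 315 against 201 and 198 CPM (0.52, SE 0.15, adjusted p = 0.185). In early nephron-like cells it was 273 and 247 against 215 and 170 CPM (0.43, SE 0.14, adjusted p = 0.653). The mice did not overlap in any of these 3, and the share of all genes without overlap was not counted. Within the NPC-like class the 7 NPC markers summed to 495 and 575 against 1028 and 1243 CPM, the 7 early nephron markers to 1630 and 1397 against 893 and 922 CPM and the 6 ErPT markers to 309 and 272 against 189 and 115 CPM. None was at 0, and their part in any change in NPC-like cells was not tested. With any 1 mouse left out, the change ran from 0.54 to 0.94 in ErPT-like and from 0.35 to 0.65 in NPC-like cells. It passed in both without mouse 3 or mouse 4 (adjusted p between 7.29e-15 and 0.00572) and in neither without mouse 1 or mouse 2 (between 0.863 and 0.9999). These settings differ in how much passes at all: over all genes and classes it was 0.231% of tests without mouse 1, 0.236% without mouse 2, 2.04% without mouse 3 and 10% without mouse 4. In stroma-like cells, by contrast, the values were 81.1 and 108 CPM against 98.1 and 219 CPM, which overlap (log2 change -0.73, SE 0.34, adjusted p = 0.973). It was -0.06 without mouse 4 (adjusted p = 0.927), which has the highest value, -0.54 and -0.95 without mice 1 and 2 (each with an adjusted p of 0.9997), and -1.19 without mouse 3 (adjusted p = 5.62e-08). No gene at all was called in stroma-like cells (0% of 8909 tested; 449 had an unadjusted p under 0.05), nor did DESeq2 call any of the 9 there.

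Whether the change of *Aldh1a2* differed between stroma and nephron was tested as an interaction, with a term for each mouse in the model. The change in PT-like cells exceeded that in stroma-like cells by 1.69 (log2, SE 0.32, adjusted p = 0.0352, edgeR), the only one of 8 tested genes of the group to pass, while 0.289% of all genes did. For NPC-like against stroma-like cells the difference was 1.15 (SE 0.30, adjusted p = 0.178), and none of the 6 tested passed (4 at an unadjusted p under 0.05), against 0.377% of all genes. For PT-like against NPC-like cells none of 7 passed (again 4 at an unadjusted p under 0.05), against 1.02% of all genes. There *Aldh1a2* differed by 0.54 (SE 0.16, adjusted p = 0.155) and *Rarb* by -1.87 (SE 0.47, adjusted p = 0.0817). The share of all genes with an unadjusted p under 0.05 was not counted for these differences.

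*Aldh1a3* changed in opposite directions in cluster 5, whose DT and early nephron scores were nearly tied, and in DT-like cells. In cluster 5 it was 134 and 200 CPM, against 27.7 and 54.9 CPM in the Trim28f/f mice, and the log2 change was 2.06 (SE 0.26, adjusted p = 0.000849, edgeR), where 0.874% of genes passed. In DT-like cells it was 12 and 22.9 CPM against 49.8 and 52.9 CPM, a log2 change of -1.55 (SE 0.30, adjusted p = 0.0244), where 0.8% of genes passed. In neither did the genotypes overlap. The adjusted p was 0.110 without mouse 2 in cluster 5 and 0.172 without mouse 1 in DT-like cells, and DESeq2 gave 0.0699 and 0.233. In DT-like cells it was also 0.182 with cells assigned by the largest tag share and 0.119 with k-means in the assignment. The change in DT-like cells minus that in cluster 5 was -3.69 (log2, SE 0.31). It is given as a description, since the pair was chosen for these calls; 0.495% of all genes passed in that fit.

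In DT-like cells the 6 markers of CD principal cells, in which *Aldh1a3* is abundant, summed to 855 and 771 against 1549 and 1732 CPM, and the 5 intercalated markers to 39.1 and 62.4 against 129 and 217 CPM, with none of either list at 0. Both lists were thus lower where *Aldh1a3* was lower, and their part in the result was not tested. In cluster 5 the CD principal markers summed to 313 and 404 against 296 and 301 CPM and the 6 ureteric bud tip markers to 66.9 and 92.0 against 83.0 and 111 CPM. The early nephron and LOH markers were lower there in both Trim28Δ/Δ mice, at 571 and 624 against 979 and 877 CPM and at 311 and 317 against 601 and 498 CPM. The part of these lists in the result was not tested. At a clustering resolution of 0.4 these groups were merged, the DT-like class then holding 410 cells of cluster 5 and 235 DT-like cells among its 647, and its log2 change was 1.10 (adjusted p = 0.218).

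Over all 13 classes tested, cluster 5 and DT-like cells included, *Aldh1a3* was higher in Trim28Δ/Δ mice in 11 and lower in 2. No other class passed. Cluster 12, where *Trim28* was 156 and 144 against 130 and 159 CPM, had 310 and 263 CPM of *Aldh1a3* against 107 and 138 CPM (log2 change 1.22, SE 0.22, adjusted p = 0.898). In the early nephron-like class it was 20.5 and 37.5 against 15.5 and 8.05 CPM (1.28, SE 0.37, adjusted p = 0.581). CD principal-like cells had 186 and 166 CPM against 61.6 in mouse 3 and 243 CPM in mouse 4 (0.23, SE 0.60, adjusted p = 0.968), so that the mice of 1 genotype lay on either side of the other.

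*Aldh1a1* showed the same direction in the 4 classes in which it could be tested and passed in none (2 had an unadjusted p under 0.05; DESeq2 called none). In cluster 12 it was 68.3 and 46.9 CPM against 7.73 and 13.2 CPM, a log2 change of 2.46 (SE 0.37, adjusted p = 0.539), with both Trim28Δ/Δ mice above both Trim28f/f mice. With mouse 1, 2, 3 or 4 left out it ran from 2.02 to 2.79, with adjusted p of 0.1503, 0.0171, 0.989 and 0.417, and with all genes of at least 1 count tested the adjusted p was 4.28e-07 (0.506% of genes passed in that fit). No gene was called in cluster 12 (0% of 9707), where 269 cells were available. Intercalated-like cells had 34.9 and 43.5 CPM against 1.63 in mouse 3 and 18.6 CPM in mouse 4 (2.06, SE 0.73, adjusted p = 0.577) from 37 UMIs in all. There *Aldh1a1* entered the test through the Trim28Δ/Δ mice alone. In cluster 12 the ureteric bud tip markers summed to 481 and 341 against 178 and 502 CPM and the DT markers to 2719 and 2087 against 1007 and 1572 CPM; their part was not tested.

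*Rarres1* rose in the proximal lineage. In ErPT-like cells it was 10.3 and 9.05 CPM, against 0.821 and 0.636 CPM in the Trim28f/f mice, and the log2 change was 3.60 (SE 0.49, adjusted p = 0.0197, edgeR), where 0.408% of genes passed. In PT-like cells it was 15 and 8.88 against 1.73 and 1.46 CPM, a log2 change of 2.88 (SE 0.43, adjusted p = 0.0360). The adjusted p in ErPT-like cells was 0.278 without mouse 1, 0.301 without mouse 2 and 0.0772 with cells assigned by the largest tag share. In PT-like cells it was 0.216 without mouse 1, 0.249 with all genes of at least 1 count, 0.0973 by the largest tag share and 0.0557 at a resolution of 0.4. The genotypes were far apart in both, although the gene was sparse, with 44 UMIs in ErPT-like and 133 in PT-like cells. Its levels in the Trim28f/f mice were too low for the filter, so it entered both tests through the Trim28Δ/Δ mice alone. In cluster 6 the values were 24.1 and 17.3 CPM against 0 in mouse 3, which had 20 cells there, and 6.23 CPM in mouse 4 (2.09, SE 0.52, adjusted p = 0.285). With mouse 1, 2, 3 or 4 left out the adjusted p there was 0.280, 0.0593, 0.00799 and 0.00271, the last against mouse 3 alone, which is at 0. Podocyte-like cells, its main site, had 54.0 and 37.5 CPM against 22.8 and 40.8 CPM, which overlap (0.68, SE 0.46, adjusted p = 0.834). The 7 podocyte markers summed to 64.4 and 46.3 against 64.6 and 66.0 CPM in ErPT-like cells and to 24.0 and 22.1 against 52.5 and 26.5 CPM in PT-like cells, none of them at 0 and none higher as a sum in both Trim28Δ/Δ mice. The 6 erythroid markers in ErPT-like cells were higher in Trim28Δ/Δ mice, at 4463 and 3901 against 1509 and 1198 CPM, and the 8 PT markers were lower, at 894 and 918 against 1412 and 1588 CPM. Free RNA held *Rarres1* at 1.82 CPM. The part of these lists and of free RNA in the result was not tested.

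**Figure D2:**
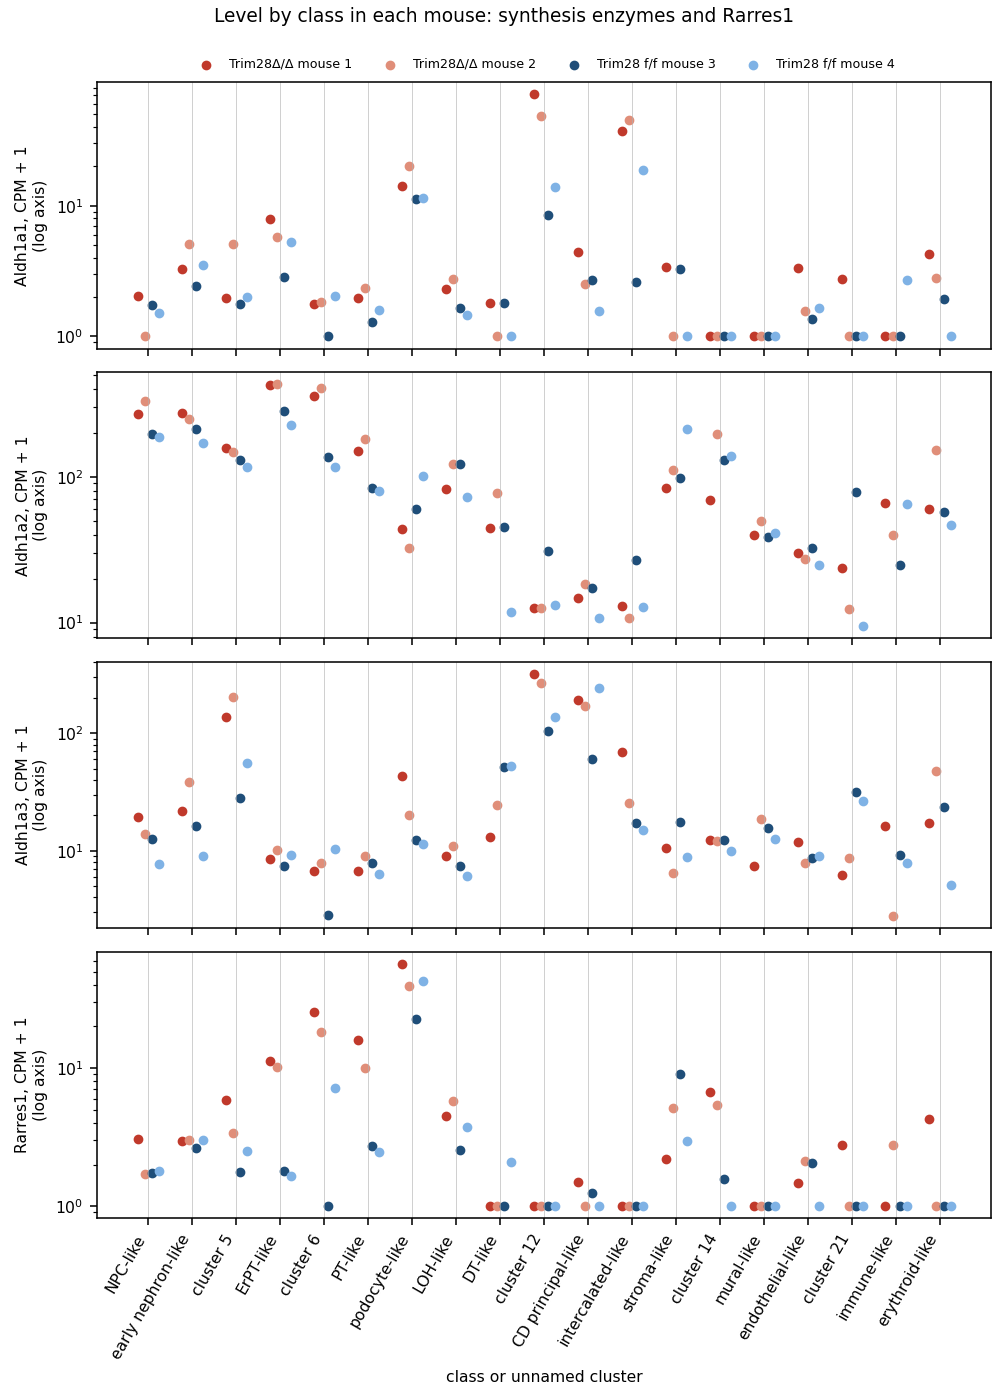
CPM plus 1 (log axis) of *Aldh1a1*, *Aldh1a2*, *Aldh1a3* and *Rarres1* in each class, 1 point per mouse; dark and light red points are Trim28Δ/Δ mice 1 and 2, dark and light blue points Trim28f/f mice 3 and 4. Red lies above blue for *Aldh1a2* in cluster 6 and PT-like cells, for *Aldh1a3* in cluster 5 and for *Rarres1* in ErPT-like and PT-like cells, and below it for *Aldh1a3* in DT-like cells.

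No receptor passed the test in any class. The nearest was *Rara* in NPC-like cells, with 8.74 and 8.84 CPM against 27.7 and 19.4 CPM (log2 change -1.40, SE 0.35, adjusted p = 0.0957). In the same cells *Rarb*, the gene with the response element shown above, was 38.9 and 41.5 CPM against 25.7 and 14 CPM (1.05, SE 0.31, adjusted p = 0.193). Neither overlapped between genotypes, in a class whose NPC and early nephron markers differed as given above. With mouse 1, 2, 3 or 4 left out, the adjusted p of *Rara* was 0.863, 0.661, 0.0283 and 5.60e-05 and its change ran from -1.65 to -1.13, while 0.032%, 0.168%, 6.21% and 12.3% of all genes in the class passed. For *Rarb* the adjusted p was 0.949, 0.834, 1.31e-07 and 0.0643, and the change was 1.53 without mouse 3 but 0.64 without mouse 4. None of the 6 genes tested in NPC-like cells was called, whereas 1.54% of all genes were (3 of the 6 and 9.94% of all genes had an unadjusted p under 0.05, and DESeq2 called none). In PT-like cells *Rarb* was lower in both Trim28Δ/Δ mice, 2.17 and 2.51 against 4.32 and 4.09 CPM (-0.84, SE 0.40, adjusted p = 0.529), and in stroma-like cells it was 52.9 and 41.8 against 54.6 and 28.1 CPM (0.16, SE 0.34, adjusted p = 1.0). *Rarg* was tested in 8 classes, with log2 changes from -1.05 to 0.10 and no unadjusted p under 0.05.

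**Figure D3:**
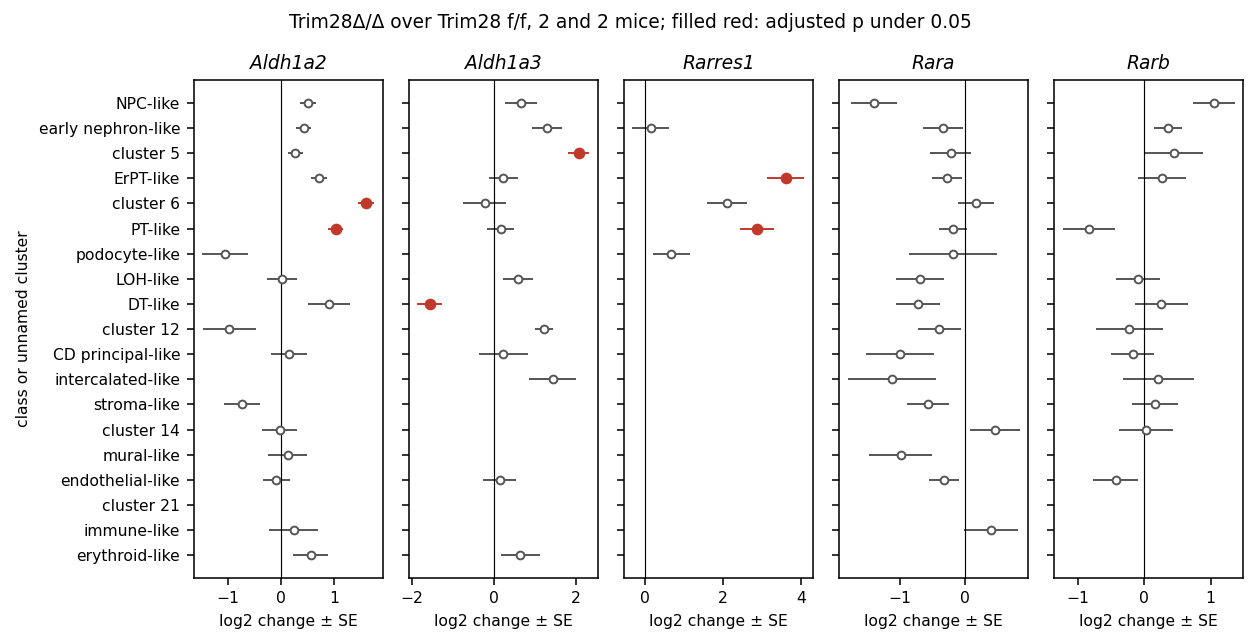
Log2 change of *Aldh1a2*, *Aldh1a3*, *Rarres1*, *Rara* and *Rarb* between 2 Trim28Δ/Δ and 2 Trim28f/f mice in each class tested, with bars of 1 SE; filled red points passed an adjusted p of 0.05. *Aldh1a3* is red on opposite sides of 0 in cluster 5 (2.06) and DT-like cells (-1.55), and no point of *Rara* or *Rarb* is red.

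Mouse 3 stood out in *Rara*, *Dhrs3* and *Cyp26b1*. *Rara* was highest in mouse 3 in 15 of 17 classes, *Dhrs3* in 12 of 18 and *Cyp26b1* in 4 of 4. The share of all genes that were highest in mouse 3 was not counted. In CD principal-like cells *Rara* was 42 and 52.4 against 141 and 45.2 CPM, *Dhrs3* was 82.1 and 78.0 against 185 and 69.6 CPM, and *Cyp26b1* was 1.43 and 1.51 against 30.8 and 5.22 CPM. Log2 changes were -1.01 (SE 0.52), -0.69 (SE 0.45) and -3.68 (SE 0.98), each with an adjusted p of 0.920, and no gene was called in this class (0% of 10879). DESeq2 called none of the 9 either, and 1 of 7 tested had an unadjusted p under 0.05, as did 2.97% of all genes. Cluster 15, nearly all of mouse 3, held 139 CPM of *Rara*, 182 of *Dhrs3* and 29.9 of *Cyp26b1*, against 47.2, 77.5 and 2.64 CPM in cluster 11, and 59.6 against 194 CPM of *Aldh1a3*. Without mouse 3, where 0.333% of genes passed, the log2 changes in CD principal-like cells were 0.08 for *Rara* and 0.20 for *Dhrs3*, and -1.78 for *Cyp26b1* (adjusted p = 0.956, 0.804 and 0.751). Without mouse 4, with mouse 3 as the lone Trim28f/f mouse, they were -1.57, -1.21 and -4.35 (adjusted p = 1.62e-06, 3.79e-06 and 1.72e-06), in a fit that called 25.3% of all genes. Over all classes *Rara* was lower in Trim28Δ/Δ mice in 14 of 17 with mouse 3 and in 7 of 17 without it, *Dhrs3* in 12 of 18 and 9 of 18, and *Cyp26b1* in 4 of 4 and 3 of 5. *Rarg*, highest in mouse 3 in 5 of 8 classes, was lower in 6 of 8 and 6 of 10. The median log2 change over classes went from -0.34 to 0.04 for *Rara*, from -0.37 to 0.00033 for *Dhrs3*, from -0.93 to -0.013 for *Cyp26b1* and from -0.35 to -0.13 for *Rarg*. Leaving out a Trim28f/f mouse with the highest values raises the change, so the direction of these shifts was set by the choice of genes. The same counts were not made with another mouse left out. In endothelial-like cells, where *Cyp26b1* was abundant, the values were 62.0 and 151 CPM against 204 and 75.5 CPM, which overlap (-0.42, SE 0.49, adjusted p = 0.958).

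**Figure D4:**
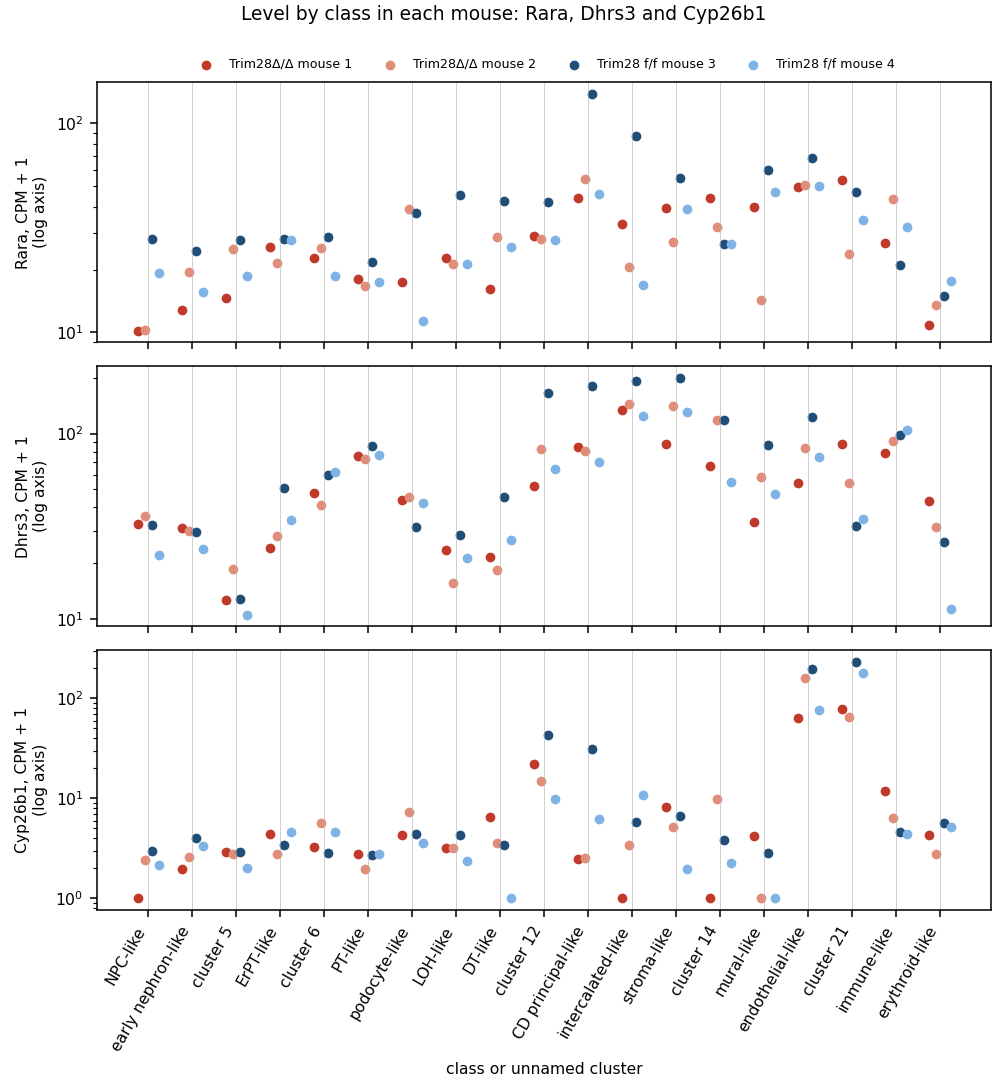
CPM plus 1 (log axis) of *Rara*, *Dhrs3* and *Cyp26b1* in each class, 1 point per mouse; dark and light red points are Trim28Δ/Δ mice 1 and 2, dark blue mouse 3 and light blue mouse 4, both Trim28f/f. The dark blue point is the highest in CD principal-like cells for all 3 genes (137, 180 and 29.9 CPM without the TMM factor).

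Summed over all cells of a mouse, a value that mixes the level per cell with the share of each cell type, none of the 9 genes passed (0.206% of 16524 genes did). An unadjusted p under 0.05 was found for 4 of them and for 15.7% of all genes, and DESeq2 called 2, *Rarres1* and *Aldh1a3*, and 4.31% of all genes. *Rarres1* was 7.63 and 5.36 CPM against 1.5 and 1.85 CPM (log2 change 1.96, SE 0.28, adjusted p = 0.0709), and *Aldh1a1* 3.40 and 4.40 against 1.52 and 2.02 CPM (1.15, SE 0.28, adjusted p = 0.148). *Aldh1a3* was 35.0 and 48.1 against 21.4 and 27.4 CPM (0.77, SE 0.21, adjusted p = 0.181), and *Aldh1a2* 156 and 190 against 138 and 129 CPM (0.37, SE 0.13, adjusted p = 0.263). With mouse 1, 2, 3 or 4 left out, the adjusted p of *Rarres1* was 0.122, 0.0148, 0.0120 and 0.00289, in fits that called 0.362%, 0.788%, 11.4% and 26.2% of all genes. For each of these 4 both Trim28Δ/Δ mice were above both Trim28f/f mice. They are the genes listed for their unadjusted p, and the share of all genes that separate in this way was not counted.

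Of 38 further genes of retinoid uptake, oxidation, degradation, receptor partnership and response, 30 could be tested in some class. This list too was chosen with earlier results of these data known. Of its 344 tests 6 passed, where 0.329% of tests of all genes did. Given here are 4 of the 6, beside shares of all genes of 0.408% in ErPT-like cells, 1.54% in NPC-like cells and 0.874% in cluster 5. *Fabp5*, a fatty acid-binding protein that also carries retinoic acid, rose in ErPT-like cells (201 and 176 against 96.0 and 67.1 CPM, log2 change 1.19, SE 0.19, adjusted p = 0.0412). *Meis2*, a homeobox gene that responds to retinoic acid in the limb, fell in NPC-like cells (264 and 277 against 500 and 427 CPM, -0.77, SE 0.14, adjusted p = 0.0260) and in cluster 5 (20 and 13.4 against 37.8 and 38.1 CPM, -1.23, SE 0.27, adjusted p = 0.0455). *Nrip1*, a nuclear receptor co-repressor, rose in NPC-like cells (129 and 120 against 71.8 and 72.2 CPM, 0.79, SE 0.17, adjusted p = 0.0488). For both genes, the part of the lower NPC and higher early nephron markers in NPC-like cells was not tested. None of the 6 calls was among the genes of oxidation and reduction or of degradation. In PT-like cells, where *Aldh1a2* and *Rarres1* rose, 0 of 24 tested genes of this wider list were called (0.452% of all genes were), and their median log2 change was -0.09. By role the medians went both ways, at -0.94 for 5 response genes, 0.24 for 7 genes of oxidation and reduction, -0.08 for 9 receptor partners and co-regulators and -0.13 for 3 uptake and storage genes.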

How the data were processed

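The pool was a 10x 3′ library with multiplexing tags. The authors deposited UMI counts per gene and barcode for all 3921239 barcodes, made with Cell Ranger 6.0.0 by their methods and not normalized, and the sources used here do not state their genome build. From them, 21385 barcodes with at least 6891 UMIs were kept where they showed 200 or more genes and no more than 10% of UMIs from mitochondrial genes. Cells were assigned to mice by HTODemux (positive quantile 0.99) on the 8 tags with counts, of which 4 are named, and tag doublets were left out. SCTransform and Louvain clustering (30 components, resolution 0.8; Seurat 5.3.0, sctransform 0.4.2, R 4.3.3) gave the clusters. A cluster took the name of its best-scoring type where the mean log2 fold of that type's markers over all other cells (10 CPM added) was 0.5 or more, 3 or more markers were raised 1.5-fold in 10% of cells, while its 10 leading genes did not hold more markers of a different type.

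UMIs summed per mouse and class (at least 10 cells in each mouse) were tested with edgeR 4.0.16 (TMM, filterByExpr, quasi-likelihood) on 2 against 2 mice, with DESeq2 1.42.0 as an alternative, and the scripts were tested on simulated data. SEs were derived from the log2 change and its F statistic. That the mice are littermates or share a day is not stated. The p-values set the difference between genotypes against a spread between these mice that edgeR estimates partly from other genes. The 9 genes, the gene lists and the tests were chosen with earlier results of these data known. Named are all 9 genes, the genes of the wider list that passed (the results of 1 of them are not reported here), and for each of the 9 genes the 3 most alike over clusters (log2(CPM + 1), at least 50 CPM in some cluster). Further alternatives were other cell assignments, doublet removal, resolutions 0.4 and 1.2, a minimum of 2500 UMIs, and clustering without the listed genes. Python 3.11.15 with scanpy 1.11.5 was used for the other steps.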

Additional observations from a re-analysis of the deposited data

Results flagged for a closer look

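The log2 change of *Aldh1a2* in PT-like cells exceeded that in stroma-like cells by 1.69 (adjusted p = 0.0352, edgeR), and by 1.03 to 2.31 with any 1 mouse left out. The change of *Aldh1a3* in DT-like cells minus that in cluster 5 was -3.69, and -4.09 to -3.18 with a mouse left out, a pair chosen because *Aldh1a3* had been called in opposite directions in them.

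In other cell groups both mice of a genotype lay on the side opposite to those calls, and these differences were not tested. The changes listed here were picked because the genotypes did not overlap. The share of all genes without overlap was not counted, so this list is only a description. *Aldh1a2* was lower in both Trim28Δ/Δ mice in podocyte-like cells (log2 change -1.06) and in cluster 12 (-0.97), against its rises in PT-like cells and cluster 6. In cluster 12 the values were 11.4 and 11.4 against 30.5 and 12.3 CPM, and without mouse 3 the change was -0.12. *Aldh1a3* was higher in both Trim28Δ/Δ mice in NPC-like (0.65), early nephron-like (1.28), LOH-like (0.59) and intercalated-like cells (1.43) and in cluster 12 (1.22), against its fall in DT-like cells. In podocyte-like cells the 6 ErPT markers summed to 59.0 and 31.7 against 75.7 and 187 CPM, lower in both Trim28Δ/Δ mice like *Aldh1a2*. By the rough estimate, free RNA alone would give 22.7 CPM of *Aldh1a2* there against a mean level of 58.5 CPM. The part of these markers and of free RNA was not tested. None of these 7 changes passed the test in its own class.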

How the results depend on the processing

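The 6 calls by class became 14 with all genes of at least 1 count tested, 1 with cells assigned by the largest tag share and 3 at a resolution of 0.4, and 4 to 27 with any 1 mouse left out (15 without mouse 3, 27 without mouse 4). Over all genes the share of tests called moved too, from 0.329% to 2.04% without mouse 3 and 10% without mouse 4, and to 1.04% with all genes of at least 1 count. In all cells, 0 calls became 3 with all genes of at least 1 count, 2 with DESeq2 and 0 to 7 with a mouse left out (1, 2 and 7 without mouse 2, 3 and 4), while the share of all genes called went from 0.206% to 3.8%, to 4.31%, and to 0.362%, 0.788%, 11.4% and 26.2% without mouse 1, 2, 3 and 4. Of the planned differences between classes, 1 call became 4 with all genes of at least 1 count and 1 to 4 with a mouse left out (2, 4 and 3 without mouse 2, 3 and 4), beside shares of all tests of 0.577% with all mice, 1.22% with genes of at least 1 count and 0.201%, 0.444%, 1.72% and 2.56% without mouse 1, 2, 3 and 4. Over 68 alternatives the 6 calls were kept in 50, lost in 17 and reversed in 1, that of *Aldh1a3* in DT-like cells at a resolution of 0.4 (log2 change 1.10), where that class also holds most of cluster 5. The call of *Aldh1a2* in cluster 6 was kept in the 9 alternatives that gave a value. The cluster was not tested under the largest tag share, k-means in the assignment or a resolution of 0.4. In CD principal-like cells, the changes with any 1 mouse left out ran from -1.57 to 0.078 for *Rara* and from -1.21 to 0.20 for *Dhrs3*, reversed without mouse 3. The cause was not tested. The class with the highest level was the same for 9 of 9 genes with other genes used to cluster, without cells marked by Scrublet and with the largest tag share, but for 6 of 9 in the mice of either genotype alone, a comparison added after seeing the data. With a mouse left out, the lone sample of its genotype is assumed to vary like the other pair, and leaving out cluster 15 gave no value, since mouse 3 then kept too few CD principal-like cells. No paired analysis was possible because the numbers of the mice only name them and no mouse of 1 genotype shares a number with a mouse of the other. *Aldh1a1* and *Rarres1* had the fewest UMIs of the 9 genes, 378 and 512 in all cells. *Aldh1a1* and *Cyp26b1* could be tested in 4 classes each and *Rarres1* in 5.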
